A study of Sus scrofa with 3 samples.

Results

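The Kruppel-like factors (KLF) are transcription factors that bind GC-rich and CACCC sequences through zinc fingers at the end of the protein, and that differ in the part which recruits coactivators or corepressors. In mouse and human cells some of them are induced within minutes to hours by serum, shear stress, TGF-beta or glucocorticoids, and several push fat cell precursors towards or away from the adipocyte fate. They were examined here in mesenchymal stem cells (MSC, stromal cells that can form fat, bone and cartilage), which are taken from adipose tissue for cell therapy. The genes were 10 named members, KLF2, KLF3, KLF4, KLF5, KLF6, KLF7, KLF9, KLF10, KLF13 and KLF15. They were picked by gene name, with earlier results of these data known. All 10 were found, among 30477 genes in the table.

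RNA was sequenced from 3 cultures of adipose-derived MSC of adult pigs, here numbered 1, 2 and 3 as in their titles. The cells of every culture were grown in advanced MEM, a culture medium, with human platelet lysate, and the study they come from transplanted MSC to arteriovenous fistulas used for hemodialysis. The labels form a single group with no treatment or control, so the data give gene levels and how these vary over the cultures. The animals behind the cultures are not named, so p-values measure the spread between these samples, which may be technical.

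Between 51788677 and 64774044 reads were counted over genes per library, and levels are RPKM, which divides the reads of a gene by its model's length in kilobases and by the size of the library. The library of culture 1 stood apart in composition, with 28.3% of reads on small RNA genes against 9.12% and 8.36% in cultures 2 and 3. The median protein-coding gene, among those averaging 1 RPKM or more, differed from culture 1 by 0.36 in culture 2 and by 0.17 in culture 3, as differences in log2(RPKM + 0.5). Of 7 MSC surface markers 6 lay above 1 RPKM, and ALCAM lay below. Of 7 markers used to exclude blood cells 5 lay below, and the others, CD14 and CD79A, lay above. CD14 had 2.29, 1.78 and 2.28 RPKM, with no overlapping gene. CD79A had 124.9, 72.6 and 69.7 RPKM, and genes overlapping its body held more reads than its own. ITGAM, called below by its mean, had 0.098, 0.143 and 1.21 RPKM, above 1 RPKM in culture 3, and its part in the values of that culture was not tested. In bulk RNA, fewer cells of a type and less RNA per cell cannot be told apart.

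Most of the KLF genes were well expressed. In limma's moderated test of log2(RPKM + 0.5) against 1 RPKM, over 29479 genes with a read, 7 of the 10 lay above 1 RPKM and 1 lay below, while 2 were not decided at an adjusted p of 0.05. Of all genes tested, 30.6% lay above and 60.8% below, and of protein-coding genes 42.0% and 47.8%. The median of the mean levels was 15.6 RPKM over the 10 members, 0.795 RPKM over protein-coding genes tested and 0.128 RPKM over all genes tested. The 7 members above formed an upper tier from 12.1 to 42.3 RPKM, and the next member, KLF2, had a mean of 1.75 RPKM. No member had an overlapping gene with more than 1.38% of its own reads, so their values are little touched by the missing strand information.

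**Figure D1:**
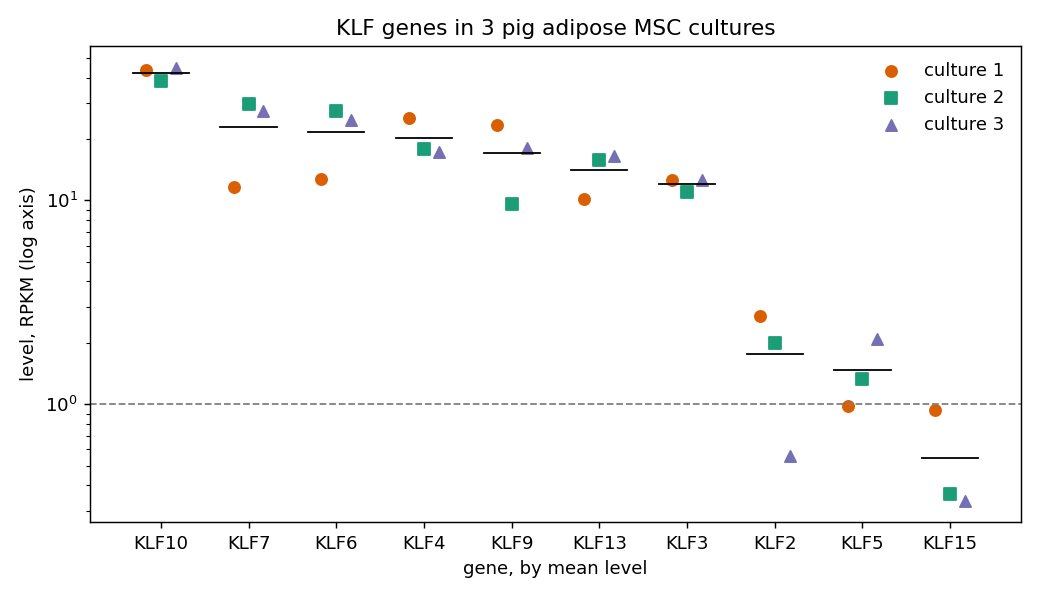
Level of each KLF gene in RPKM (log axis) in cultures 1, 2 and 3, with the mean as a black line and 1 RPKM as a dashed line. KLF10 leads in each culture at 38.7 to 44.8 RPKM, a gap separates KLF3 (mean 12.1) from KLF2 (mean 1.75), and KLF7, KLF6 and KLF9 spread most in the upper tier.

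KLF9, KLF10 and KLF13 belong to the members that bind the corepressor SIN3A and mostly act as repressors. KLF10, known as a TGF-beta inducible early gene, was the highest member. It had 43.4, 38.7 and 44.8 RPKM in cultures 1, 2 and 3, a mean of 42.3 ± 3.22 (SD, n = 3), from 7476, 8001 and 9645 reads (ENSSSCG00000027480, chromosome 4, 34421359 to 34436009, susScr11). The cultures lay close together, and KLF10 ranked first of the 10 in each of them. Its mean stood 4.83 ± 0.26 (SE) above 1 RPKM on the log2(RPKM + 0.5) scale (limma, adjusted p = 2.0e-18, above in 3 of 3 cultures), and at percentile 92.3 of protein-coding genes averaging 1 RPKM or more. P-values this small borrow the variance of the other genes and do not rest on KLF10 alone.

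KLF9, which glucocorticoids and thyroid hormone induce in rodent and human cells, had 23.3, 9.58 and 18.2 RPKM, a mean of 17.02 ± 6.94 (ENSSSCG00000021646, chromosome 1, 223720445 to 223748226). Culture 2 was low, at 2664 reads against 5394 and 5256 in the others. KLF13, known as a regulator of the chemokine CCL5 in human T cells, had 10.1, 15.7 and 16.6 RPKM, a mean of 14.1 ± 3.48 (ENSSSCG00000026006, chromosome 1, 143493527 to 143540563). Culture 1 was its lowest. Both genes lay above 1 RPKM (limma, adjusted p = 1.8e-14 and 2.3e-14), in 3 of 3 cultures each.

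KLF3 belongs to the members that recruit the CtBP corepressors, and it restrains fat cell formation in mouse. It had 12.6, 10.95 and 12.6 RPKM, a mean of 12.1 ± 0.956 (ENSSSCG00000036488, chromosome 8, 30024797 to 30060979), and was above 1 RPKM in limma (adjusted p = 5.8e-14). As deposited, KLF3 and KLF10 had the smallest log2 SD over cultures of the 10 members, at 0.11 each. Scaled to protein-coding reads, KLF13 had the narrowest range at 1.29-fold, against 1.41-fold for KLF10 and 1.44-fold for KLF3.

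KLF2, KLF4, KLF5, KLF6 and KLF7 are members that often activate transcription, and here they comprised high and low genes. KLF7, which promotes axon growth and blocks fat cell formation in rodent and human cells, had 11.7, 29.7 and 27.4 RPKM, a mean of 22.9 ± 9.84 (ENSSSCG00000029998, chromosome 15, 110286436 to 110536189). KLF6, a tissue injury response gene close to KLF7 in the family tree, had 12.7, 27.4 and 24.9 RPKM, a mean of 21.7 ± 7.88 (ENSSSCG00000035212, chromosome 10, 66488391 to 66497844). In both genes culture 1 was low and cultures 2 and 3 lay together. Their ratio within a library, KLF7 over KLF6, was 0.919, 1.08 and 1.10.

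KLF4, a reprogramming factor that represses contractile genes of smooth muscle in mouse and human cells, was highest where KLF6 and KLF7 were lowest. It had 25.4, 17.9 and 17.3 RPKM, a mean of 20.2 ± 4.53 (ENSSSCG00000005437, chromosome 1, 248604820 to 248609574), with culture 1 the highest. KLF4, KLF6 and KLF7 were each above 1 RPKM in 3 of 3 cultures (limma, adjusted p = 5.8e-16, 1.4e-15 and 2.1e-14).

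The other activating members were near 1 RPKM. KLF2, the flow-induced factor of endothelium that holds back fat cell formation in mouse, had 2.70, 2.0 and 0.558 RPKM, a mean of 1.75 ± 1.09 from 244, 217 and 63 reads (ENSSSCG00000038911, chromosome 2, 61270714 to 61273139). Culture 3 was low. The 95% exact Poisson intervals of the levels, which cover counting error only, were 2.37 to 3.06, 1.74 to 2.28 and 0.429 to 0.714 RPKM. They did not overlap, and neither did those of the cultures for KLF5, KLF6, KLF7, KLF9 and KLF13. Limma did not place KLF2 above or below 1 RPKM (adjusted p = 0.15), but without culture 3 it lay above (adjusted p = 0.016).

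KLF5, a factor of epithelial and smooth muscle cell growth and of early fat cell formation in mouse, had 0.981, 1.33 and 2.10 RPKM, a mean of 1.47 ± 0.572 (ENSSSCG00000035101, chromosome 11, 45369797 to 45388314). Culture 3 was high and culture 1 low. It was not decided either (limma, adjusted p = 0.19), and lay above without culture 1 (adjusted p = 0.043). KLF2 over KLF5 was 2.76, 1.51 and 0.266 within the libraries, so their order in culture 3 was the reverse of that in the others.

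KLF15, a glucocorticoid-induced factor of metabolism and of the mature fat cell in mouse, was the lowest member. It had 0.937, 0.362 and 0.337 RPKM from 138, 64 and 62 reads, a mean of 0.545 ± 0.340 (ENSSSCG00000036742, chromosome 7, 53877813 to 53890546). Culture 1 was apart from the others by more than counting error, at a 95% interval of 0.787 to 1.11 against 0.278 to 0.462 and 0.258 to 0.431 RPKM. Every other member also had cultures whose intervals did not overlap, so this is not particular to KLF15. KLF15 was called below 1 RPKM (limma, adjusted p = 0.020, below in 3 of 3 cultures as deposited). Leaving out culture 2 or culture 3 ended that call (adjusted p = 0.21 and 0.20). Scaled to protein-coding reads, KLF15 had 1.09 RPKM in culture 1.

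Of 9 pairs of genes next to each other by mean level, 3 differed in the same direction in each culture and by more than the SD of their difference. These were KLF10 over KLF7 (0.97 ± 0.78 on the log2 scale, SD, n = 3), KLF3 over KLF2 (2.62 ± 0.88) and KLF5 over KLF15 (0.92 ± 0.81). The last pair differed by only 0.04 in culture 1, and it was no longer beyond its spread without culture 2 or without culture 3. The steps from KLF7 through KLF6, KLF4, KLF9 and KLF13 to KLF3 were smaller than their spread. KLF7 and KLF6 differed by 0.05 ± 0.14, KLF6 and KLF4 by 0.05 ± 0.89, and KLF2 and KLF5 by 0.09 ± 1.25. Over all 45 pairs of members, 34 kept 1 order in each culture and 11 did not. An exact sign-flip permutation test cannot go below p = 0.25 with 3 cultures, so no p is given for these differences.

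The make-up of the family differed between the cultures, while its sum was more alike as deposited. The summed level of the 10 members was 144, 154 and 165 RPKM in cultures 1, 2 and 3 (154 ± 10.5, SD, n = 3), and the first 5 genes by mean took 81.0%, 80.3% and 80.5% of it. With median-of-ratios size factors the sum was 144, 131 and 193 RPKM, and scaled to protein-coding reads it was 168, 142 and 152 RPKM. The shares are within a library, per length, and do not depend on how libraries are scaled to each other. KLF10 took 30.2%, 25.2% and 27.2%. KLF7 took 8.11%, 19.4% and 16.7%, and KLF6 took 8.82%, 17.9% and 15.1%. KLF4 took 17.7%, 11.6% and 10.5%, and KLF9 16.2%, 6.23% and 11.02%. In culture 1 KLF4 and KLF9 thus followed KLF10, whereas in cultures 2 and 3 KLF7 and KLF6 did. By group, the SIN3-binding KLF9, KLF10 and KLF13 together took 53.4%, 41.6% and 48.3%, the 5 activating members 37.2%, 51.0% and 43.9%, and KLF3 took 8.73%, 7.13% and 7.68%.

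**Figure D2:**
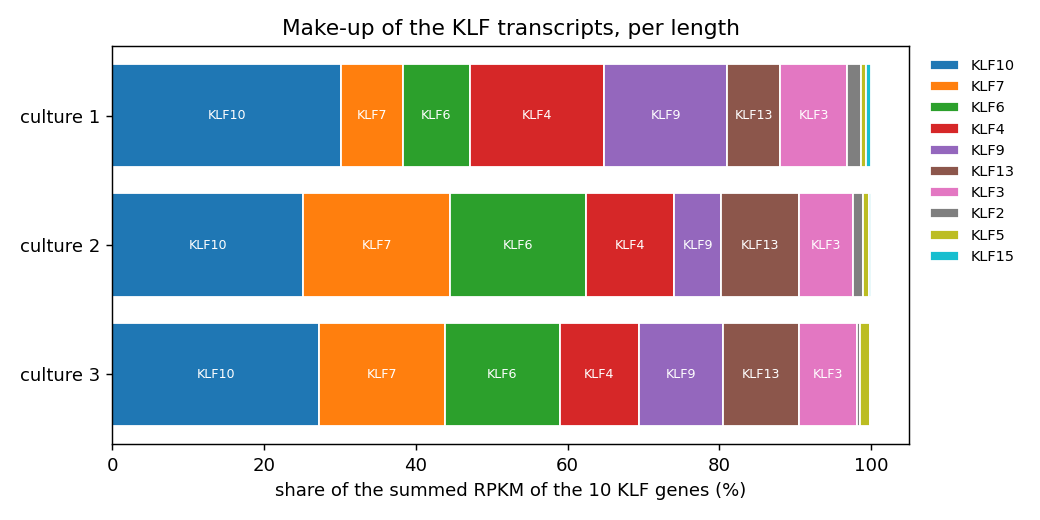
Share of the summed RPKM of the 10 KLF genes taken by each gene (percent) in cultures 1, 2 and 3, as stacked bars. KLF10 takes the first 25.2% to 30.2%, while KLF7 and KLF6 are narrow and KLF4 and KLF9 wide in culture 1 (KLF7 8.11%, KLF9 16.2%).

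Against culture 1, KLF7 differed most upward in both other cultures, and KLF9 in culture 2 and KLF2 in culture 3 most downward on the log2(RPKM + 0.5) scale. The pseudocount shrinks the low KLF15, whose RPKM in culture 1 was 2.59 times that in culture 2, against 2.43 times for KLF9. Set against the median protein-coding gene, KLF7 was higher by 0.96 in culture 2 and by 1.03 in culture 3 than in culture 1, as differences in log2(RPKM + 0.5). This put it at percentiles 95.4 and 96.1 of 9574 protein-coding genes. KLF6 was higher by 0.73 and 0.78. KLF9 relative to the median was -1.60 in culture 2 (percentile 1.36) and -0.52 in culture 3, and KLF2 was -0.71 and -1.76 (percentile 1.0 in culture 3). KLF15 was -1.09 and -0.95, and KLF4 -0.85 and -0.71. These are descriptions of 1 library each, and the place of the small RNA share of culture 1 in them was not tested. Across the deposited scaling, median-of-ratios size factors and scaling to protein-coding reads, the highest and the lowest culture were the same for KLF2, KLF5, KLF9 and KLF13. KLF6 and KLF7 were lowest in culture 1 under all 3 scalings, but highest in culture 2 or, with size factors, in culture 3. KLF4 and KLF15 were highest in culture 1 under all 3. KLF10 and KLF3 were highest in culture 3 as deposited and with size factors, and in culture 1 when scaled to protein-coding reads.

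**Figure D3:**
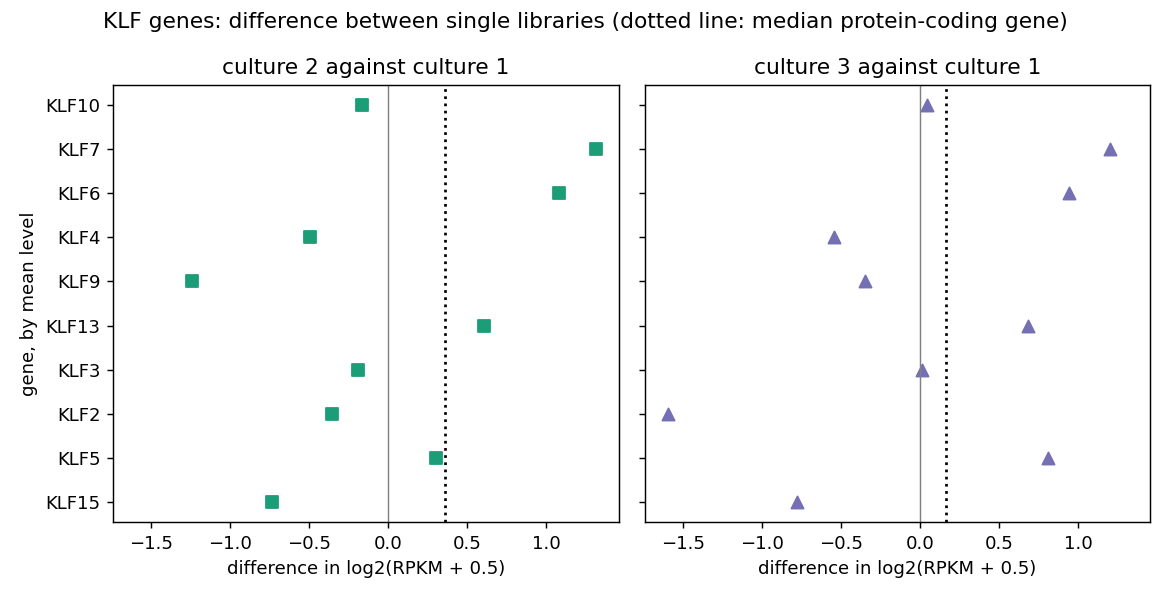
Difference in log2(RPKM + 0.5) of each KLF gene in culture 2 (left) and culture 3 (right) against culture 1, with 0 as a grey line and the median protein-coding gene as a dotted line at 0.36 and 0.17. KLF7, KLF6 and KLF13 lie right of the dotted line in both panels and KLF4, KLF9, KLF2 and KLF15 left of 0.

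No member varied more than other genes of its level by the test used. The variance over cultures was compared with limma's trended prior variance for the 10474 genes averaging 1 RPKM or more, of which 9 were members. None of the 9 passed at an adjusted p of 0.05 or at an unadjusted p of 0.05, and of all genes 0.0% passed adjusted (0 genes) and 5.93% unadjusted (621 genes). KLF7 came nearest with a log2 SD of 0.73 against 0.33 for genes of its level (limma, unadjusted p = 0.073, adjusted p = 0.89), followed by KLF2 with 0.84 against 0.39 (unadjusted p = 0.083). With 3 cultures this does not show that the spreads are alike. The median log2 SD was 0.41 over the 9 members and 0.31 over the 10474 genes.

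Of the other KLF genes 7 of 8 were matched by name, and 3 lay above 1 RPKM, 3 below and 1 was not decided. These counts are near the shares of all protein-coding genes tested, 42.0% above and 47.8% below. The same shares are the background for the counts of the lists that follow. The median of their mean levels was 0.984 RPKM, so the level of the 10 members does not stand for the whole family. KLF16, a SIN3-binding member, had 6.32, 9.58 and 7.08 RPKM, KLF12, a CtBP-binding repressor, 5.45, 10.2 and 5.32, and KLF11, the relative of KLF10 in TGF-beta signalling, 2.82, 3.35 and 2.53. All 3 lay below each member of the upper tier by mean level. KLF8, a CtBP-binding member, had 0.984 ± 0.295 RPKM (limma, adjusted p = 0.89). The erythroid KLF1 (1 read in all), KLF14 (0.060 ± 0.050 RPKM) and KLF17 (0.041 ± 0.036) were of the size of the background, since the median of 103 olfactory receptor genes, which few other tissues express, was 0.061, 0.051 and 0 RPKM. For the count of 0 over KLF17 in culture 3, a set floor of 3 reads is 0.016 RPKM. The exact 95% Poisson interval, counting error only, reaches 0.020 RPKM.

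The SP factors, the sister family with like zinc fingers, held 9 measured genes, of which 2 lay above 1 RPKM and 4 below. SP1, a ubiquitous activator, had 27.5, 34.8 and 31.1 RPKM and SP3 had 19.6, 23.3 and 27.2. Both were of the level of the upper KLF tier. SP2 (1.15 ± 0.110) and SP4 (0.874 ± 0.135) were not decided. SP5, SP6, SP8 and the osteoblast factor SP7 had means from 0.023 to 0.098 RPKM, and SP9 was listed at 0.

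**Figure D4:**
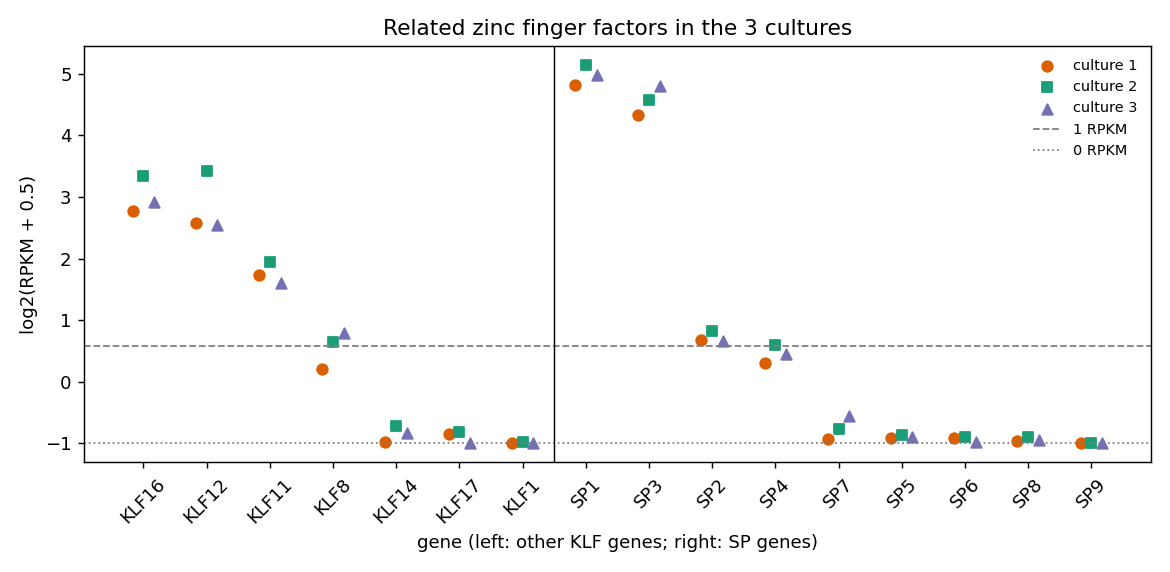
Level as log2(RPKM + 0.5) of 7 other KLF genes (left) and 9 SP genes (right) in cultures 1, 2 and 3, with 1 RPKM dashed and 0 RPKM dotted. SP1 and SP3 stand highest (means 31.1 and 23.4 RPKM), KLF16, KLF12 and KLF11 lie above 1 RPKM, and KLF14, KLF17, KLF1 and SP5 to SP9 lie near 0.

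Partners of the KLF proteins were expressed throughout. All 12 listed corepressors and coactivators lay above 1 RPKM in limma. The deacetylase HDAC1 (38.2 ± 9.80 RPKM), the acetyltransferase EP300 (19.5 ± 1.46) and FHL3, a coactivator that binds KLF3 in mouse (16.5 ± 4.31), were highest. Named after their values were seen, SIN3A had 15.5 ± 0.478 RPKM and the CtBP genes CTBP1 and CTBP2 had 2.02 ± 0.501 and 5.06 ± 1.41. Of the ubiquitin ligases that degrade KLF proteins 9 of 10 were matched by name and all 9 lay above 1 RPKM. SMURF2 led with 20.6, 51.9 and 50.5 RPKM, low in culture 1 as KLF6 and KLF7 were. The median protein-coding gene was also lowest in culture 1, though by less, and the likeness was not tested. FBXO32, a ligase of KLF4, had 19.2 ± 1.16 and SMURF1, a ligase of KLF2, 10.9 ± 2.26.

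The kinase pathway through MEKK3 and ERK5 to the MEF2 factors, which induces KLF2 and KLF4 in endothelium, had 8 of 10 listed genes above 1 RPKM and 0 below. Those above included KRIT1, CCM2 and PDCD10, whose protein complex restrains MEKK3, and KRIT1 has an overlapping gene with more reads than its own. MEF2A had 18.2 ± 2.46 RPKM, MAP3K2 15.6 ± 3.87 and MEF2D 6.42 ± 0.163. The kinase gene MAPK7 (0.822 ± 0.290, with an overlapping gene of more reads) and MEF2C (0.795 ± 0.262) were not decided. Of the genes that KLF2 and KLF4 raise or lower in endothelium 7 of 9 were matched by name, with 4 above and 3 below. The matrix proteases ADAMTS5 (22.4 ± 10.6) and ADAMTS4 (14.8 ± 3.73, with an overlapping gene of more reads) and the oxidoreductase NQO1 (13.6 ± 7.72) were highest. Those below, named after their values were seen, were the nitric oxide synthase NOS3 (0.039 ± 0.049 RPKM), thrombomodulin (THBD, 0.112 ± 0.020) and the lipid receptor S1PR1 (0.368 ± 0.212).

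Most defining markers of other cell types that use KLF2, KLF4 or KLF5 lay below 1 RPKM. Below 1 RPKM is not the same as background, and some exceeded the olfactory receptor medians in each culture, such as EPCAM (0.279, 0.151 and 0.162 RPKM). Of 10 endothelial markers 9 lay below 1 RPKM, with CDH5 at 0.036 ± 0.026 and VWF at 0.083 ± 0.032, and the summed level of the list was 2.09, 3.77 and 1.92 RPKM. The gene above was PECAM1 (1.92 ± 0.910), whose overlapping genes held many times its reads and which was not called without culture 2 or without culture 3. All 4 matched epithelial and mesothelial markers of 7 lay below, with a summed level of 0.856, 0.332 and 0.184 RPKM. Among them CDH1 differed between the cultures, with 0.439, 0.068 and 0.006 RPKM from 176, 33 and 3 reads. Of 8 macrophage markers 7 lay below and TYROBP was not decided (summed 1.38 to 2.01 RPKM).

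Genes of the glucocorticoid axis, which drives KLF9 and KLF15 in other cells, differed among themselves in their order over the cultures. Of 8 genes 6 lay above 1 RPKM and 0 below. The receptor NR3C1 had 12.3, 16.1 and 23.0 RPKM, the phosphatase DUSP1 85.3, 37.4 and 48.2, and the receptor chaperone FKBP5 3.60, 13.5 and 17.7. DUSP1 was highest in culture 1 and lowest in culture 2, as KLF9 was, while FKBP5 and NR3C1 were lowest in culture 1. The likeness of DUSP1 to KLF9 was not tested. Chosen after their values were seen, TSC22D3 (GILZ) had 12.05, 5.93 and 7.26 RPKM and the kinase SGK1 8.14, 2.21 and 9.51. HSD11B1, which activates glucocorticoids in the cell and has an overlapping gene with more reads, had 24.1, 3.67 and 2.39 RPKM. Also chosen after its values were seen, it was highest in culture 1 as KLF9 and KLF15 were, and the likeness was not tested. Its spread over the cultures was not called (limma spread test, adjusted p = 0.64). Of 7 genes of the list in the spread test 3 had an unadjusted p under 0.05, beside 5.93% of all 10474 genes in that test. With adjustment over all genes 0 passed.

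The TGF-beta axis, which induces KLF10 and KLF11, was expressed in full, with 10 of 10 genes above 1 RPKM. The receptor TGFBR2 had 71.3 ± 12.8 RPKM and the ligand TGFB2 48.1, 23.5 and 72.9. KLF10 itself ranged 1.16-fold over the cultures as deposited, and 1.41-fold to 1.60-fold under the other scalings. Immediate early genes, among which KLF4, KLF6 and KLF10 are often counted, had 8 of 14 above 1 RPKM and 2 below, with a median of 3.45 RPKM. JUN, among those above, is annotated as a pseudogene. IER2, among those below, is annotated as a lncRNA and had 2, 2 and 1 reads, so these calls may not stand for the coding genes. EGR1 had 17.1, 10.1 and 14.3 RPKM, IER3 22.5 ± 6.0 (with an overlapping gene of more reads), and DUSP1 was highest.

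Of 12 regulators and products of fat cell formation 2 lay above 1 RPKM and 9 below, the latter including the fat cell products FABP4, PLIN1, ADIPOQ and SLC2A4. The early factors CEBPB (35.7, 25.8 and 31.1 RPKM) and CEBPD (44.98, 13.1 and 12.4 RPKM) were those above. CEBPD, like KLF4, was highest in culture 1, and the likeness was not tested. SREBF1 (1.26 ± 0.155) was not decided. PPARG, the late master regulator, had 0.060 ± 0.031 RPKM and DLK1, a preadipocyte gene that KLF6 represses in mouse, 0.039 ± 0.034, both named after their values were seen. Of 7 adipocyte markers 6 lay below and GPD1 was not decided. Of the metabolic genes that KLF15 regulates in mouse 5 of 7 were matched by name. ALDH6A1 (4.93 ± 0.558) and BCAT2 (3.99 ± 0.473), enzymes of branched-chain amino acid breakdown, lay above 1 RPKM, and the glucose transporter SLC2A4 (0.017 ± 0.011) below. BCKDHA of the same breakdown (1.62 ± 0.414, with an overlapping gene of more reads) was not decided at a pseudocount of 0.5 RPKM (limma, adjusted p = 0.072) but lay above at 0.1 and 1 RPKM (adjusted p = 0.042 and 0.040).

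Of the smooth muscle programme, which KLF4 represses in mouse, 5 of 9 genes lay above 1 RPKM and 1 below. ACTA2 had 107, 817 and 143 RPKM, TAGLN 107, 384 and 163, and the serum response factor SRF 2.38, 6.15 and 3.36. All 3 were highest in culture 2, where KLF4 (17.9 RPKM) was between its values in the other cultures as deposited and lowest with median-of-ratios size factors. The coactivator MYOCD had 0.869 ± 0.520 RPKM and was not decided.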

How the data were processed

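Libraries were made from 0.5 µg of total RNA with the TruSeq V2 RNA-Seq kit, per the labels' protocols, with susScr11 as the genome, per the submitters' processing notes. Names of the aligner, counter and annotation, and the strand setting, were not given in the sources used here. The authors deposited RPKM values per gene, per the file headers. RPKM times the listed length plus 1 base gave whole reads within 1e-06 of a read for 100% of values, so read numbers and their exact 95% Poisson intervals were taken from them. A gene model of 2 kb at 1 RPKM holds 104 to 130 reads, and the 37 mitochondrial genes are listed at 0. Of 14012 genes without a name, 785 were named from a table of Ensembl IDs.

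Levels were tested in R 4.3.3 with limma (version 3.58.1), taking log2(RPKM + 0.5), two-sided against 1 RPKM (trended, robust prior variance), with Benjamini-Hochberg adjustment over all genes tested. A pseudocount of 0.5 RPKM understates differences of low genes. Spread was tested by an F test against the prior variance. Both steps were tested on simulated data. A gene is named where it is a member, another KLF or SP gene, or among the 3 highest of its list, and 1 gene that this names is not reported here. Members and lists were chosen with earlier results of these data known. Alternatives were the pseudocount, a filter, 2 scalings, precision weights and leaving out each culture. Python 3.11.15 was used for summaries.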

Additional observations from a re-analysis of the deposited data

How the results depend on the processing

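The 7 members above 1 RPKM numbered 7 under the other pseudocounts, scalings, weights and filter, and 7 to 8 with a culture left out. The count below was 1, and 0 to 1 with a culture left out (0 without culture 2 and without culture 3). With a filter of 0.1 RPKM, 3956 genes in place of 17925 lay below 1 RPKM, since fewer low genes were tested. The spread test called 0 genes, 14 with median-of-ratios size factors and 0 to 131 with a culture left out (131 without culture 3), none of them a member, and the cause was not tested. Neighbouring pairs beyond their spread numbered 3, and 3 to 6 with a culture left out (6 without culture 1). KLF3 over KLF2 was among them without culture 2 and without culture 3, but KLF5 over KLF15 was not. KLF8 lay at -0.04 against 1 RPKM on the log2 scale, at -0.16 to 0.13 with a culture left out (0.13 without culture 1), and was undecided throughout these. No paired analysis was possible because the labels give a single group.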

Other observations

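Several genes close to KLF15 on chromosome 7 were low and highest in culture 1. That order is not particular to this place, since the median of 103 olfactory receptor genes was 0.061, 0.051 and 0 RPKM. Genes with any read numbered 28310, 28395 and 24503 in cultures 1, 2 and 3. An unnamed lncRNA that ends 11597 bases from KLF15 (ENSSSCG00000048394, 53859010 to 53866216, susScr11) had 0.663, 0.136 and 0.093 RPKM in cultures 1, 2 and 3, from 182, 45 and 32 reads. ALDH1L1, an enzyme of folate metabolism 83107 bases away, had 0.744, 0.234 and 0.268 RPKM, beside 0.937, 0.362 and 0.337 RPKM for KLF15. ALDH1L1 overlaps SLC41A3, which had 2.39, 1.94 and 1.66 RPKM from 694, 676 and 602 reads against 204, 77 and 92 for ALDH1L1, so the reads of these genes cannot be fully told apart. CFAP100, a cilia protein gene 18879 bases away on the other side, had the reverse order with 0.635, 0.946 and 1.38 RPKM. An unnamed lncRNA only 274 bases from KLF15 had 0.110, 0.061 and 0.011 RPKM from 24, 16 and 3 reads. A further unnamed lncRNA 67726 bases away had 0.313, 0.201 and 0.169 RPKM. These genes were chosen by position, within 100 kb of KLF15, after the values of KLF15 were seen, and the likeness was not tested.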
